A study of Mus musculus with 8 samples.

Results

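The Rnf genes encode proteins with a RING finger, a zinc-binding fold, and most of them are ubiquitin ligases. They were chosen by symbol: all protein-coding mouse genes named Rnf followed by digits, except Rnf2, which gave 82 genes. Of these, 55 carried at least 1 N6-methyladenosine (m6A) peak, out of 13110 gene identifiers with a peak in all. The share of all protein-coding genes with a peak was not counted, so whether 55 of 82 is usual is not known. The assay was m6A sequencing of mouse embryonic stem cells in which doxycycline (Dox) switched on a knockdown of Setd2. The Dox cells received 1 µg/ml Dox for 4 days, and the control cells carried the same inducible knockdown and received none. Both grew as feeder-free spheres in serum-free medium with LIF at 1000 U/ml, the MEK inhibitor PD0325901 at 1 µM and the GSK3 inhibitor CHIR99021 at 3 µM. The 8 libraries were an IP with an m6A antibody and its input, in 2 replicates each, from Dox cells and from control cells. No cells without the construct received Dox, and what Dox does by itself cannot be told apart from what the knockdown does. The labels name neither the knockdown construct nor the parental line.

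A RING ligase holds a ubiquitin-loaded E2 enzyme next to a substrate and promotes the transfer of ubiquitin to it. Depending on the chain that is built, the substrate is degraded, moved or brought into a signalling complex. m6A is placed on messenger RNA by a complex around METTL3 and METTL14, often within the letters GGAC and near stop codons, and it affects the splicing, export and stability of the RNA. SETD2 trimethylates lysine 36 of histone H3 along transcribed genes, a histone mark that METTL14 can bind.

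Each condition had 1 peak list that the authors called on both replicates together, with 27612 peaks in the Dox list and 25815 in the control list. The fold of a peak is the authors' ratio of IP over input, and its log10 FDR measures its support, with more negative values for better support. Neither read depth nor a value per replicate stands behind a single peak, so replicate error is unknown and the conditions could not be compared by a test. Intervals on percentages are exact (Clopper-Pearson) 95% intervals and cover counting error only. They treat peaks as independent, though 1 gene can hold many, as Rnf213 does with 14 Dox and 13 control peaks. The intervals may therefore be too narrow. A peak is called unmatched here when it shared no exonic nucleotide on the same strand with any peak of the other list. An unmatched peak may still hold m6A in the other condition below the calling threshold, and fewer transcripts and fewer methylated transcripts cannot be told apart there. All 8 embryonic stem cell genes looked at, Pou5f1, Sox2 and Nanog among them, had peaks in both lists, and of 5 fibroblast genes Col1a1 and Vim did. Setd2 itself had 6 peaks in the Dox list and 10 in the control list, which does not measure its RNA level.

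Letters under a peak near a transcript's beginning could be read over at least 30 bases for 8 genes, where both the deposited peaks and the RefSeq promoter windows of GRCm38.p6 (the mm10 assembly) reach. The stretches read for Rnf34, Rnf40, Rnf114 and Rnf146 held no GGAC on the transcript's strand, which says only that these letters are not in them. The other 4 held 1 site each and are shown: Rnf111 and Rnf31 with a site under a control peak alone, and Rnf145 and Rnf4 with a site under a peak of both lists. The sequences run 5' to 3' on the transcript's strand, and capitals mark GGAC, or GGACT where a T follows.
Rnf111, chr9:70503485-70503514, minus strand: ccccagccccgcgccagcgagtccgGGACc
Rnf31, chr14:55591738-55591767, plus strand: tgccaGGACTtcctgttcccggtaaccctg
Rnf145, chr11:44519210-44519239, plus strand: gccgggcagcagcGGACaccgccatcccca
Rnf4, chr5:34336397-34336426, plus strand: gcgggccggtgccGGACgagcggaagtggg
The Rnf111 site lay in a control peak with no Dox counterpart, and the Rnf31 site in the part of a control peak that the Dox peak did not reach. The letters are short and common in such windows. GGAC occurred on the transcript's strand in 41.8% of all 32851 promoter windows over 144 bases, the length of Rnf111 read here, and GGACT in 6.11% over the 54 bases of Rnf31. On the opposite strand GGAC occurred in 41.2% and 18.3% of windows of these lengths. Every GGACT is also a GGAC. A match is a description of the letters and not a mapped m6A site.

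Most Rnf genes with a peak had one in both conditions. Peaks were in both lists for 48 of the 55 genes (87.3%), against 79.9% of all identifiers with a peak. Peaks in the Dox list alone were found for 5 genes (9.09%, against 11.1% of all identifiers) and in the control list alone for 2 genes (3.64%, against 8.92%). The comparison set is wider, since only 10796 of the 13110 identifiers received the symbol of a protein-coding gene. No intervals were computed for these gene shares, which rest on few genes. The 5 genes of the Dox list alone had 1 peak each, and all 5 peaks were weakly supported. Rnf103, an endoplasmic reticulum ligase, had a fold of 11.9 at a log10 FDR of -2.06. Rnf207 had a fold of 8.13 at -2.51, and Rnf144a, a RING-between-RING ligase, had 7.05 at -2.02. Its relative Rnf144b had a fold of 5.97 at -1.55, and Rnf13, a membrane ligase of endosomes, had 5.97 at -3.64. Such values recur throughout the list: 126 Dox peaks carried the very fold and FDR of the Rnf103 peak, and 63 those of the Rnf144a peak. In the control list alone, Rnf43, the membrane ligase that removes Frizzled receptors, had 2 peaks, with folds of 14.8 at -2.60 and 12.3 at -2.30. The first of these value pairs occurred in 147 control peaks. Rnf149, another membrane ligase, had 1 control peak with a fold of 1.92 at -2.51, and a second Ensembl identifier in the same interval also had a control peak. None of the 7 genes seen in 1 list only had a peak whose log10 FDR reached -5.

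The remaining 27 genes were given no peak of either list by the naming used here. Of 13110 identifiers with a peak, only 10796 received a symbol, so a peak of these genes could have gone unnamed. They include Rnf5, Rnf170, Rnf180, Rnf183 and Rnf186 of the endoplasmic reticulum group, Rnf128, Rnf130, Rnf133, Rnf148 and Rnf150 of the membrane group, and Rnf125 and Rnf166 of the innate immune group. Rnf17 and Rnf212, genes known from germ cells and meiosis, were also without a named peak. Their RNA levels were not analysed here.

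**Figure D1:**
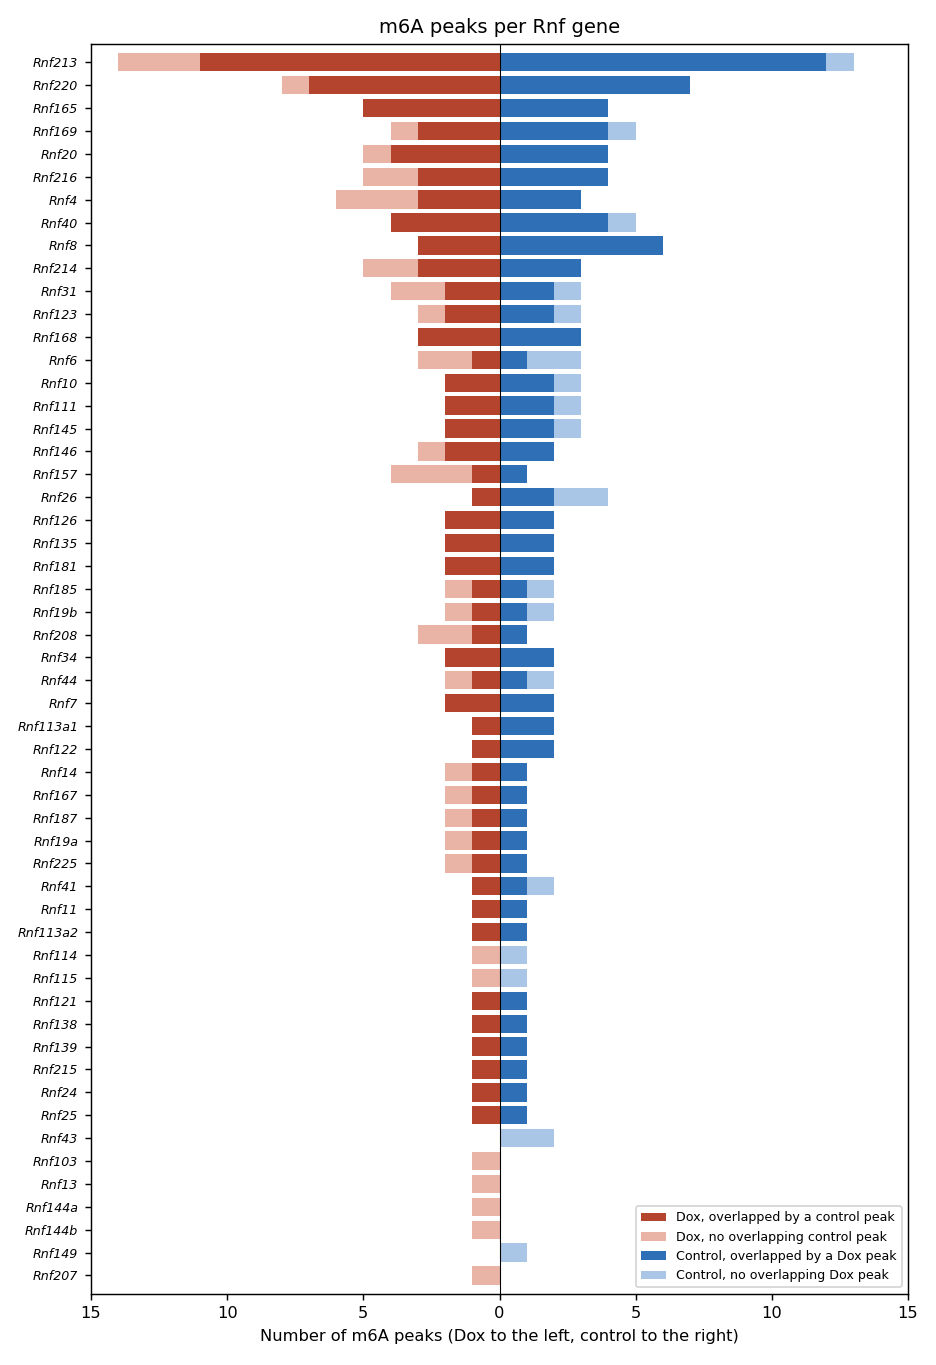
Number of m6A peaks of each Rnf gene with a peak, with 1 gene not shown, Dox to the left and control to the right of 0. Dark bars are peaks overlapped by a peak of the other list and pale bars are unmatched peaks. Rnf213 had the most, 14 in the Dox list and 13 in the control list, and most genes had 1 to 3 on each side.

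The 55 genes held 134 Dox peaks and 124 control peaks. Of the 48 genes with peaks in both lists, 16 had more peaks in the Dox list, 10 had fewer and 22 had the same number. This split was not counted over all identifiers, and the whole Dox list was also the longer one, with 27612 peaks against 25815. Unmatched peaks numbered 39 of 134 in the Dox list, or 29.1% (21.6 to 37.6), against 29.1% of all Dox peaks. In the control list 21 of 124 were unmatched, or 16.9% (10.8 to 24.7), against 19.3% of all control peaks. The shares of the Rnf genes were thus near those of the whole lists in both directions.

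Unmatched peaks were more frequent among weakly supported peaks in both lists. Above a log10 FDR of -5, 29 of 50 Rnf Dox peaks (58%) and 16 of 35 Rnf control peaks (45.7%) were unmatched, against 52.1% of all other Dox peaks and 40.4% of all other control peaks of such support. At -5 or less, the unmatched were 10 of 84 Dox peaks, or 11.9% (5.86 to 20.8), and 5 of 89 control peaks, or 5.62% (1.85 to 12.6). The values over all peaks at that support were 11.6% in the Dox list and 7.56% in the control list. At -20 or less, 1 of 38 Dox peaks and 0 of 43 control peaks were unmatched, the second allowing a share of up to 8.22%. Of all other peaks, 2.81% in the Dox list and 1.37% in the control list were unmatched there.

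**Figure D2:**
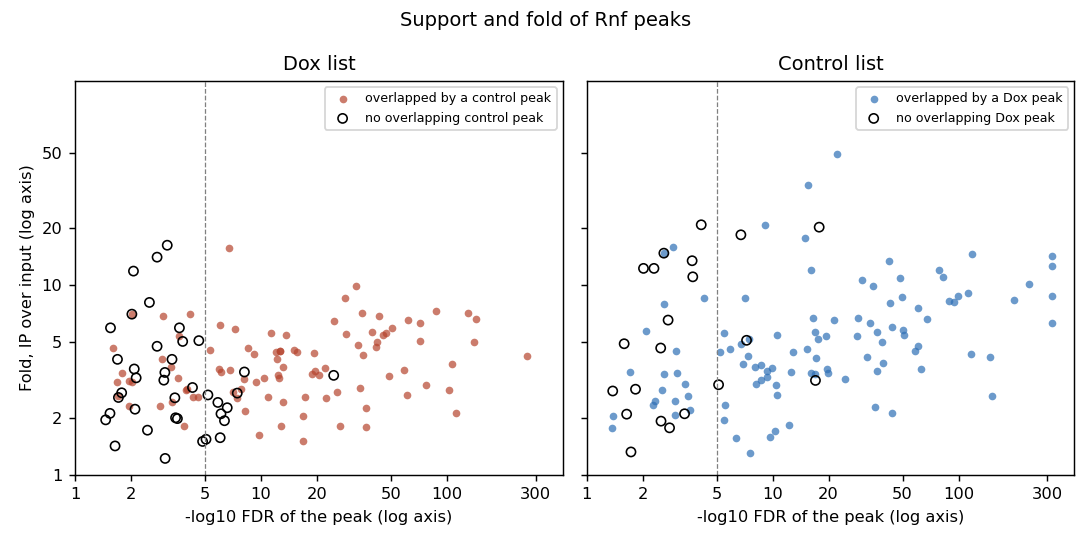
Fold (IP over input, log axis) against -log10 FDR (log axis) of each Rnf peak, Dox list left and control list right. Filled points overlap a peak of the other list, open circles do not, the dashed line marks a log10 FDR of -5, and the 4 control peaks listed with a log10 FDR of minus infinity are drawn at the right edge. Open circles lie mostly left of the line, and folds of 8 and more are more frequent in the control list.

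The Dox list had lower folds than the control list. The median fold of Rnf peaks was 3.45 in the Dox list (quartiles 2.57 and 5.04) and 4.63 in the control list (quartiles 3.11 and 8.45). The medians over all other peaks were 3.51 in the Dox list and 4.62 in the control list. A fold of at least 8 was reached by 7 Dox peaks (5.22%, against 9.42% of all other Dox peaks) and 36 control peaks (29%, against 26.8% of all other control peaks). The Rnf peaks were also somewhat longer in the Dox list, with a median of 270 exonic nucleotides in the Dox list against 240 in the control list. The medians over all other peaks were 240 in the Dox list and 211 in the control list. How IP and input were scaled in each list is not stated, so a lower fold in 1 list is not by itself a lower m6A level.

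In 80 cases, 1 Dox peak and 1 control peak overlapped each other and no other peak. The fold was lower in Dox in 57 of these pairs and higher in 23, so that 71.2% (60 to 80.8) were lower, against 65.9% of all such pairs. The median ratio of Dox to control fold was 0.738 (a log2 difference of -0.44), against 0.815 (-0.30) for all other pairs. A fold in Dox at or below 50% of the control fold occurred in 17 pairs (21.2%, against 20.4% of all other pairs), and a doubling in 1 pair (1.25%, against 3.32%). The Dox peak was the wider one in 56 pairs (70%, against 56.8% of all other pairs) and the control peak in 18. By the highest fold per gene, 36 of the 48 genes in both lists (75%) were lower in Dox, against 73.6% of all identifiers. The single-pair values that follow are a description of these pooled lists.

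**Figure D3:**
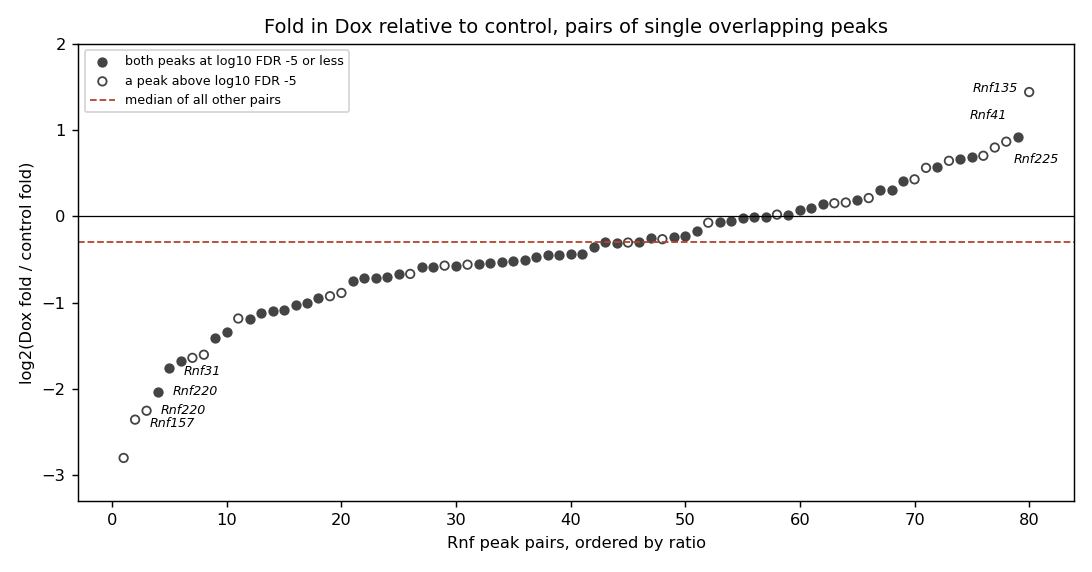
Log2 ratio of the Dox fold to the control fold for the 80 pairs, in order of the ratio; in filled points both peaks have a log10 FDR no higher than -5. Of the pairs, 57 lie below 0, and Rnf135 lies highest at 1.44; the dashed line marks -0.30, the median of all other pairs.

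Rnf20 and Rnf40 form the ligase that attaches a single ubiquitin to histone H2B on transcribed genes. Both had peaks in both lists, 9 Dox and 9 control peaks together, of which 1 in each list was unmatched. The strongest Rnf40 peak had a fold of 5.0 in Dox at a log10 FDR of -140 and 12.7 in control, where the log10 FDR was listed as minus infinity. Its 3 other pairs were also lower in Dox, with folds of 2.75, 2.05 and 1.81 in Dox against 4.48, 4.19 and 3.44 in control. In Rnf20 the strongest peak differed less, with a fold of 9.87 in Dox at -32.5 and 11.1 in control at -83.0. The unmatched Rnf20 peak was a weak Dox peak, with a fold of 2.11 at -1.54. Of 6 further genes of H2B ubiquitination, Ube2a and Usp22 among them, all had a peak. Unmatched were 6 of 15 Dox peaks (40%, 16.3 to 67.7) and 3 of 13 control peaks (23.1%, 5.04 to 53.8). These intervals include the shares over all peaks, 29.1% in the Dox list and 19.3% in the control list.

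Rnf8 and Rnf168 act in turn at DNA double-strand breaks, where they ubiquitinate histones to recruit repair proteins, and Rnf169 is a relative of Rnf168 that binds the same mark. The group held 10 Dox and 14 control peaks, with 1 unmatched in each list. Rnf8 had 3 Dox peaks and 6 control peaks and no unmatched one. Its Dox peak in the middle of the gene, with a fold of 5.49 at -45.2, covered the place of 2 control peaks, with folds of 12.0 at -78.8 and 3.46 at -19.8. Its 5' peak had a fold of 2.82 at -3.93 in Dox and 6.69 at -28.8 in control. Some peaks over Rnf8 carry a second identifier, of a gene that reads through the locus, so the counts at Rnf8 are uncertain. Rnf168 was higher in Dox at 2 of its 3 pairs. One inside the gene had a fold of 5.57 at -28.5 in Dox and 3.50 at -12.5 in control, and the most 3' one had 2.85 at -7.82 in Dox and 2.46 at -2.33 in control. Its 5' pair was lower in Dox, with 4.47 in Dox against 6.69 in control. Rnf169 was mixed. A pair that was higher in Dox had 5.50 at -13.6 in Dox and 3.69 at -7.99 in control. Another was lower in Dox, with 3.72 at -3.28 in Dox and 4.47 at -12.8 in control. The best supported Rnf169 Dox peak, with 6.51 at -24.6, overlapped 2 control peaks, with 10.9 at -48.5 and 5.39 at -19.3. Rnf169 also had an unmatched control peak with a fold of 13.5 at -3.69. Of 7 repair partners found, such as Brca1 and Trp53bp1, all had peaks in both lists. Their unmatched peaks were 10 of 29 in Dox (34.5%, against 29.1% of all Dox peaks) and 4 of 23 in control (17.4%, against 19.3%).

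Rnf4 and Rnf111 (Arkadia) recognise proteins that carry SUMO chains, and Rnf111 also acts in TGF-beta signalling. Rnf4 had 6 Dox peaks and 3 control peaks, and each control peak had a Dox counterpart. Its 3 unmatched Dox peaks lay within 2000 nt of the gene's 3' end and had low folds, of 1.57, 1.5 and 1.22, at log10 FDR values of -6.03, -4.85 and -3.05. The peaks with folds of 1.57 and 1.5 overlap each other and so mark 1 place. At the Rnf4 5' peak, which holds the GGAC printed above, the fold was 4.07 at -2.94 in Dox and 2.34 at -5.57 in control. Rnf111 had 2 pairs, which differed in opposite directions: 4.27 in Dox against 8.25 in control, and 3.25 in Dox against 2.20 in control. The Rnf111 5' peak, with a fold of 11.1 at -3.72 and the GGAC printed above, was in the control list alone. All 8 SUMO partners looked at had peaks. Unmatched were 6 of 24 Dox peaks (25%, against 29.1% of all Dox peaks) and 1 of 20 control peaks (5%, 0.127 to 24.9, against 19.3%).

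Among ligases of Wnt signalling, Rnf146 marks Axin for degradation once tankyrase has modified it, and Rnf220 has been linked to beta-catenin. The main Rnf146 peak had a fold of 6.93 at -43.3 in Dox and 14.7 at -118 in control. Rnf220 had 8 Dox and 7 control peaks, and every control peak had a Dox counterpart. Its best supported peak had a fold of 4.25 at -271 in Dox and 6.37 in control, where the log10 FDR was listed as minus infinity. A Rnf220 peak nearby had a fold of 4.34 at -9.21 in Dox and 17.8 at -15 in control, which was among the widest differences. At the most 3' pair of Rnf220 the folds were close, with 2.24 in Dox and 2.13 in control. Of 9 Wnt partners, 8 had peaks in both lists. Their unmatched peaks were 8 of 26 in Dox (30.8%, against 29.1% of all Dox peaks) and 5 of 27 in control (18.5%, against 19.3%).

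RING-between-RING ligases pass ubiquitin through a cysteine of their own before it reaches the substrate. Of 8 genes, 7 had a peak, and unmatched peaks were 9 of 17 in the Dox list (52.9%, 27.8 to 77.0) and 2 of 11 in the control list (18.2%, 2.28 to 51.8). The 29.1% of the whole Dox list lay inside the first of these intervals. Of the 9 unmatched Dox peaks, 8 had a log10 FDR above -5. The exception was a Rnf19b peak with a fold of 1.54 at -5.06. Rnf31 (HOIP) builds linear ubiquitin chains in the LUBAC complex. Its 5' peak had a fold of 2.58 at -10.9 in Dox, and 8.73 at -49.4 in control (chr14:55591738-55592192). The control peak began upstream of the Dox peak and took in the GGACT shown above. The next Rnf31 pair had folds of 2.86 at -34.0 in Dox and 4.81 at -60.4 in control. Rnf216 had a pair with a fold of 2.57 at -17.3 in Dox and 8.22 at -94.7 in control, and another that was higher in Dox, with 4.70 in Dox against 3.53 in control. Rnf14 and Rnf19a had 1 pair each, with folds of 2.59 and 4.58 in Dox against 3.85 and 4.59 in control. The 3 LUBAC partners Rbck1, Sharpin and Otulin had 5 Dox and 8 control peaks, and Sharpin had control peaks only. Unmatched were 1 of the 5 Dox peaks (20%, 0.505 to 71.6) and 4 of the 8 control peaks (50%, 15.7 to 84.3). These intervals include the 29.1% of all Dox peaks and the 19.3% of all control peaks.

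Rnf19b showed the best supported control peak without a Dox counterpart. It lay at chr4:129058271-129058839 on the plus strand, with its centre 411 nt from the gene's 5' end, and had a fold of 20.3 at a log10 FDR of -17.8. The 3' peak of the same gene was in both lists, with a fold of 6.66 at -143 in Dox and 14.3 in control, where the log10 FDR was listed as minus infinity. Rnf115, a cytoplasmic ligase, had 1 peak in each list and these lay at opposite ends of the gene. Its Dox peak was centred 1186 nt from the 3' end, with a fold of 2.1 at -6.09. The control peak, at chr3:96727694-96727843 on the plus strand, was centred 172 nt from the 5' end and had a fold of 18.5 at -6.75. Rnf114 also had 1 unmatched peak in each list, but both were weak, with a fold of 4.07 at -1.69 in Dox and 6.56 at -2.74 in control.

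**Figure D4:**
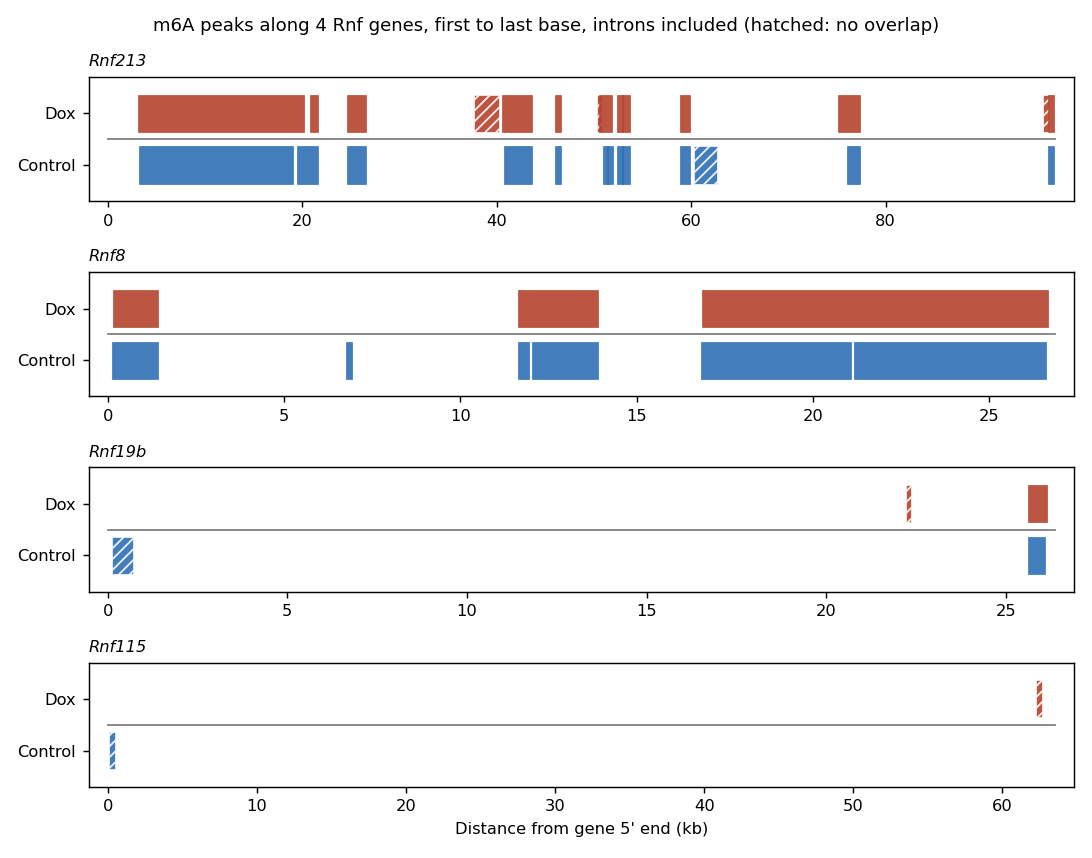
Peaks of Rnf213, Rnf8, Rnf19b and Rnf115 by distance from the gene's 5' end in kb, Dox above control. Bars run from the first to the last base of a peak with introns included, very short peaks are widened to stay visible, and hatched bars are unmatched. Rnf19b and Rnf115 have a 5' peak in the control row alone, while Rnf213 has 3 hatched bars in the Dox row and 1 in the control row.

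Unmatched Dox peaks with a log10 FDR no higher than -5 numbered 10, in 9 genes. Of these, 6 lay within 2000 nt of the 3' end, against 34.5% of all such Dox peaks that could be placed. This window is wider than the 1000 nt used for 3' ends below, and the count depends on it. Only those of Rnf187, Rnf185 and Rnf44 lay within 1000 nt. Peaks of Rnf213, Rnf115 and Rnf4 lay at 1110, 1186 and 1989 nt. No interval was computed for so few peaks. The best supported of the 10 was in Rnf187, a coactivator of the AP-1 transcription factor, at chr11:58932288-58932438 on the minus strand, with a fold of 3.35 at -24.6. Its centre lay 75 nt from the 3' end. Rnf185, which takes part in degradation from the endoplasmic reticulum, had one at 219 nt from the 3' end, with 2.41 at -5.86. Rnf44 had one at 703 nt from the 3' end, with 1.93 at -6.36. Rnf213 had 2, with folds of 2.70 at -7.45, 1110 nt from the 3' end, and 2.26 at -6.58 inside the gene. Rnf157 had one with 3.49 at -8.14, and Rnf167, an endosomal membrane ligase, had one 140 nt from the 5' end with 2.64 at -5.18. Those of Rnf4, Rnf115 and Rnf19b are given above.

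The other unmatched control peaks with that support were in Rnf44, Rnf145 and Rnf41. Rnf44, a relative of the ligase RLIM, had one with a fold of 3.15 at -17.0. Rnf145, which is tied to sterol metabolism at the endoplasmic reticulum, had one with a fold of 5.13 at -7.24. Rnf41 (Nrdp1), which controls the level of ErbB receptors, had one with a fold of 2.99 at -5.12. Of the 5 such control peaks, 0 lay within 2000 nt of a gene's 3' end, against 12.2% of all such control peaks that could be placed.

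Peaks near gene ends can be counted in genes of at least 3000 nt. Centred within 500 nt of the 5' end were 10 of 128 Rnf Dox peaks (7.81%, against 8% of all placed Dox peaks) and 14 of 116 Rnf control peaks (12.1%, against 13.5%). By the nearest end of the peak the gap was narrower, with 15 Dox and 17 control peaks within 500 nt. Centres gave 7 Dox and 10 control peaks within 300 nt, and 10 Dox and 15 control peaks within 1000 nt. Measured from the nearest RefSeq start, 10 Dox and 16 control peaks were centred within 500 nt. The first Rnf34 peak began at the same base in both lists, but only its control peak was centred within 500 nt of the 5' end. Centred within 1000 nt of the 3' end were 17 Dox peaks (13.3%, against 15.6%) and 14 control peaks (12.1%, against 14%). Of the 5' peaks, 2 of 10 were unmatched in Dox (20%, 2.52 to 55.6), in Rnf114 and Rnf167, against 14.8% of all other 5' Dox peaks. In control 5 of 14 were unmatched (35.7%, 12.8 to 64.9), in Rnf6, Rnf10, Rnf19b, Rnf111 and Rnf115, against 38.7% of all other 5' control peaks. Where both lists had a 5' peak, the fold was lower in Dox for Rnf31, Rnf145, Rnf168, Rnf7 and Rnf8. It was higher in Dox for Rnf4, Rnf138 and Rnf214. The Dox peaks of these 3 genes and those of Rnf145 and Rnf8 had a log10 FDR above -5. The Rnf145 5' peak, which holds the GGAC printed above in both lists, had a fold of 3.43 at -1.79 in Dox and 10.7 at -30.1 in control.

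**Figure D5:**
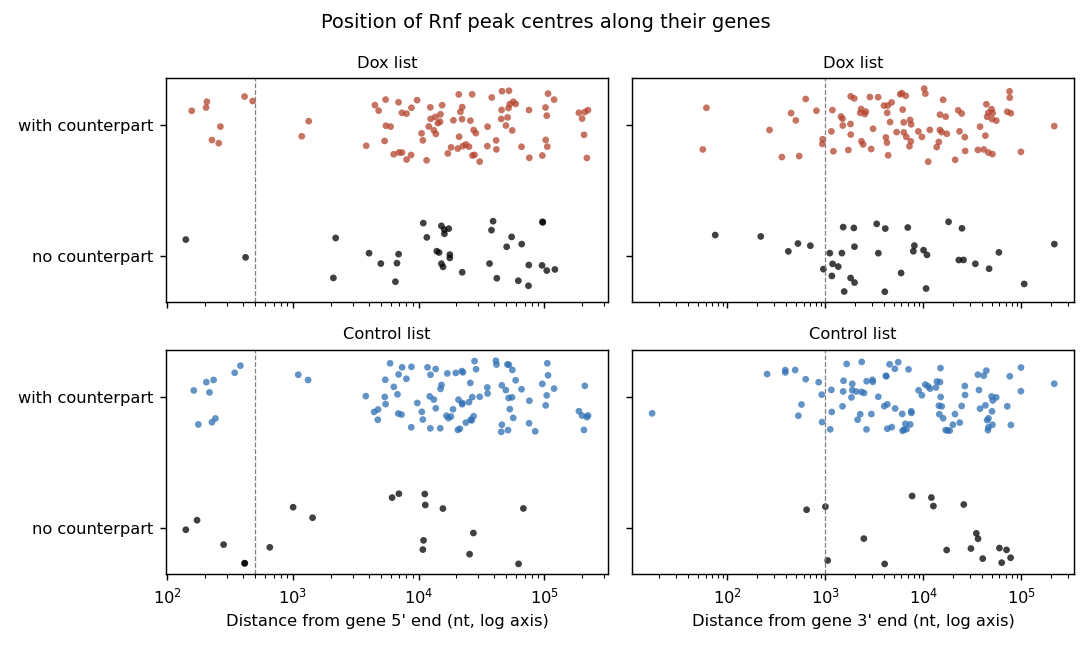
Distance of Rnf peak centres from the gene's 5' end (left) and 3' end (right) in nucleotides on log axes, Dox list above and control list below, with unmatched peaks in black. Dashed lines mark 500 nt from the 5' end and 1000 nt from the 3' end, and peaks centred past an annotated end are not drawn. Unmatched peaks within 500 nt of the 5' end number 2 in the Dox list and 5 in the control list.

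Of the 10 membrane ligases with a protease-associated domain, 5 had a peak, against 55 of all 82 Rnf genes. These 5 genes held 4 Dox and 5 control peaks. Unmatched were 2 of the Dox peaks (50%, 6.76 to 93.2) and 3 of the control peaks (60%, 14.7 to 94.7). With so few peaks the Dox interval includes the 29.1% of all Dox peaks, and the control interval the 19.3% of all control peaks. Rnf167 and Rnf215 had a pair each, with folds of 1.63 and 4.51 in Dox against 1.70 and 3.65 in control. In the endoplasmic reticulum group 5 of 10 genes had a peak, with 7 in each list and 2 unmatched in each (28.6%, 3.67 to 71). The main Rnf145 peak had a fold of 7.17 at -130 in Dox and 10.2 at -239 in control. Rnf139 (TRC8), a sterol-sensing ligase, had 4.58 at -15 in Dox and 9.98 at -34.7 in control, and Rnf121 had 4.38 at -19.3 in Dox and 5.23 at -17.6 in control. Rnf185 had a pair that was higher in Dox, with 3.37 at -12.4 in Dox and 2.07 at -2.99 in control. The gene interval of Rnf139 overlaps that of Tatdn1, so its peaks are uncertain.

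Some of the widest differences in fold were at single peaks. In Rnf122, 1 Dox peak with a fold of 6.20 at -6.04 overlapped 2 control peaks, with folds of 33.8 at -15.5 and 8.0 at -2.60. Rnf165, also a relative of RLIM, had 6.87 at -2.97 in Dox and 20.9 at -9.05 in control at its most 3' pair. Rnf157 had 3.12 in Dox and 16 in control, both weakly supported, at -1.95 and -2.90. Rnf26 had a control peak with a fold of 20.9 at -4.13 that carries its identifier but lies well past the annotated 3' end, so it may not belong to the gene. At Rnf44 the main peak had the same boundaries in both lists, with 3.86 at -107 in Dox and 8.82 in control, where the log10 FDR was listed as minus infinity.

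The pairs that were higher in Dox were fewer and in part well supported. Rnf135 (Riplet), which activates the RNA sensor RIG-I, had a 3' peak with a fold of 7.12 at -34.8 in Dox and 2.62 at -3.50 in control. Rnf41 had 7.36 at -87.5 in Dox and 3.90 at -39.2 in control, the highest ratio among pairs with both peaks at -5 or less. Rnf181 had 2.53 at -22.5 in Dox and 1.57 at -6.35 in control at its 3' peak, while its other peak was lower in Dox, with 2.99 in Dox against 4.35 in control. Rnf225 had 15.7 at -6.75 in Dox and 8.61 at -4.26 in control. The same pair rule gave close values for Rnf25, with 5.95 in Dox and 5.39 in control, and for Rnf34, with 3.57 in Dox and 3.53 in control.

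Rnf213, a giant protein with both an ATPase and a RING domain that is linked to moyamoya disease in people, had the most peaks. Of its 14 Dox peaks 3 were unmatched, and of its 13 control peaks 1. Toward the 5' part of the gene a Dox peak with a fold of 4.73 at -41.8 overlapped 2 control peaks, with folds of 8.81 at -99.0 and 6.02 at -43.9. The best supported Rnf213 Dox peak, with a fold of 6.54 at -62.1, covered the place of 2 control peaks, with folds of 3.64 and 6.31. Its most 3' pair was close, with 5.0 at -42.1 in Dox and 5.85 at -50.3 in control. Over all Rnf genes, 10 Dox peaks in 8 genes each overlapped at least 2 control peaks of the same identifier, by 1 nucleotide or more (7.46%, against 6.38% of all Dox peaks). The reverse was seen for 3 control peaks in 3 genes (2.42%, against 2.75% of all control peaks). The 3' peak of Rnf123, another large ligase, had a fold of 5.65 in Dox and 8.07 in control. Rnf7, a RING subunit of cullin ligases, had low folds throughout, of 1.5 and 1.78 in Dox and of 2.27 and 1.30 in control.

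The wider ubiquitin system gave shares of the same order. Of the E1 and E2 enzymes, 30 of 39 had a peak, and 20.7% of their Dox peaks and 11.3% of their control peaks were unmatched. Of the Trim genes, another RING family, 38 of 68 had a peak, with 23.7% unmatched in Dox and 14% in control. Of the Usp genes, which remove ubiquitin, 46 of 56 had a peak, with 29.9% unmatched in Dox and 18.4% in control. All 8 RING ligases of other names that were looked at, such as Rlim and Mdm2, had a peak. Unmatched were 7 of 17 Dox peaks (41.2%, 18.4 to 67.1) and 3 of 14 control peaks (21.4%, 4.66 to 50.8). The whole lists had 29.1% unmatched in Dox and 19.3% in control. None of these differences was tested, since each condition had a single list.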

How the data were processed

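Purified mRNA was sonicated before the IP and libraries kept strand, per the labels' protocols. TopHat2 2.1.1, FastQC 0.11.5 and mm10 as build are listed in the submitters' processing notes. The deposited tables are named for exomePeak; its settings and annotation are not stated. Each table pools the 2 replicates of a condition. It holds, per the file headers, a p-value, the log10 of p and of the FDR, and the fold, a ratio of IP over input, all computed by the authors. Depth is unknown, and nothing says whether replicates were separate cultures.

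The members and gene lists were chosen with earlier results of these data known. Identifiers were named by the protein-coding RefSeq gene (GRCm38.p6) whose interval, on the same strand where known, held most peak midpoints and at least 50% of them. Ties went to the shorter interval, a choice made after seeing the data that named Rnf139 and Rnf113a2. Where a gene had several identifiers, only that with most peaks counted. Of 13110 identifiers, 10796 received a symbol, and 65 of the 82 members had a RefSeq promoter window, which runs from 250 bases before to 50 after a start. Exonic blocks were compared, and 1 shared nucleotide made a match. The overlap code was tested on simulated peaks. The planned searches for RING motifs in proteins and for m6A motifs outside promoter windows were not run. The genes described are those with peaks in 1 list only, those with an unmatched peak whose log10 FDR reached -5, those with the most peaks, lowest FDR or highest fold, and 7 role groups. Rnf6, Rnf7, Rnf10, Rnf25, Rnf34, Rnf114, Rnf123, Rnf135, Rnf138, Rnf181, Rnf214 and Rnf225 were added after their values were seen. The values of 1 gene that this rule takes are not reported here, though it stays in the counts. Coordinates are 1-based. Python 3.11.15, numpy 2.4.6, pandas 2.3.3, scipy 1.17.1 and matplotlib 3.10.9 were used.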

Additional observations from a re-analysis of the deposited data

How the results depend on the processing

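Of 69 alternatives computed, 17 moved the value, that is, a count by over 1.5 times or a share or median out of its 95% interval, and 52 did not, and the median fold stayed lower in Dox than in control under each alternative run on it. With the log10 FDR limited to -5 or lower on both sides, 84 Dox and 89 control peaks were left. Unmatched were 19% of these Dox peaks (11.3 to 29.1, all peaks 22.3%) and 15.7% of these control peaks (8.88 to 25, all peaks 21%). In the control list alone were 4 genes (8.7%, all identifiers 12.9%), and 5' peaks numbered 4 in Dox and 9 in control. With that limit only in the list counted, 11.9% of Dox and 5.62% of control peaks were unmatched. The shorter lists deposited by the authors (p up to 1e-05 and a fold of 2 or more) left 80 Dox peaks and 84 control peaks. Unmatched were 18.8% of these Dox peaks (10.9 to 29, all peaks 22.3%) and 15.5% of these control peaks (8.51 to 25, all peaks 24%). With a fold of at least 4 in both lists, 55 Dox and 73 control peaks were left, 9 genes were in the Dox list alone (19.1%, all identifiers 12%) and 6 in the control list alone (12.8%, all identifiers 27.9%). Unmatched peaks were then 36.4% in Dox (all peaks 31.6%) and 46.6% in control (all peaks 45.7%), so the Dox share was no longer the higher one. Counting each gene once, by its best supported peak, gave median folds of 5.1 in Dox and 7.14 in control. Without symbols that end in a letter, 3 genes were in the Dox list alone. The causes were not tested beyond the fewer peaks or genes that each setting leaves. The alternative without tied names and the one with RefSeq starts were chosen after seeing the data. No paired analysis was possible because each list pools both replicates, and for the same reason no replicate could be left out.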
